A study of Mus musculus with 6 samples.

Results

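The dystrophin complex links the actin cytoskeleton of a muscle cell to the basement membrane, and 9 of its genes were followed in aortas of Mymsl knockout mice (KO) and wild-type mice (WT). Mymsl is a long noncoding RNA. The genes were picked by symbol as parts of the complex, with earlier results of these data known: Dmd, Utrn, Dag1, Sgca, Sgcb, Sgcd, Sgce, Sspn and Lama2. All 9 were found among the 53735 rows of the count table, and all 9 were among the 14145 rows that passed the filter on low counts. Each genotype had 3 libraries. Per the labels' protocols, the medial layer of each aorta gave purified smooth muscle cells as the source of RNA, and libraries were stranded and poly(A)-selected (Illumina TruSeq). The labels give no age, sex or strain, do not say how the Mymsl allele was made, and are silent on whether 1 library stands for 1 mouse. The submitters mention 3 pairs of mice, and what joins a pair is left unsaid. P-values therefore measure the spread between these libraries.

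In this complex, dystrophin (Dmd) or its autosomal relative utrophin (Utrn) binds actin inside the cell and the transmembrane beta subunit of dystroglycan at the membrane. Dystroglycan (Dag1 encodes both subunits) carries sugar chains outside the cell that bind laminins, among them laminins that contain the alpha 2 chain (Lama2). The sarcoglycans are membrane proteins that assemble with one another and with the tetraspan protein sarcospan (Sspn), and they hold dystroglycan and dystrophin together. In skeletal and heart muscle alpha-sarcoglycan is part of the assembly, while in smooth muscle epsilon-sarcoglycan is known to take the place of alpha. Loss of delta- or beta-sarcoglycan in mice is known to disturb vascular smooth muscle as well as heart muscle.

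Total counts lay between 20048216 and 23243129 in KO libraries and between 23506674 and 25521123 in WT libraries. With 0 rows named Mymsl, a check of the targeted gene by name was not possible. The single row called over all genes by the main test, RP23-57D10.3, had 0 counts in each KO library and 314, 378 and 273 counts in WT replicates 1, 2 and 3. Mitochondrially encoded genes held 18.9%, 10% and 13% of counts in KO replicates 1, 2 and 3, against 7.84%, 9.02% and 5.66% in WT replicates 1, 2 and 3. Smooth muscle markers, 11 genes that include Acta2 and Myh11, summed to 43800, 57900 and 47000 CPM in the KO libraries and to 52600, 56100 and 55300 CPM in the WT libraries. CPM, read counts scaled to library size, are here normalized by the trimmed mean of M values (TMM). Heart muscle markers summed to 193, 124 and 121 CPM in KO and to 129, 99.4 and 124 CPM in WT, with 15 of 16 detected and Nppb at 0. Skeletal muscle markers, 14 of 14 detected, stayed between 21.2 and 25.4 CPM in KO and between 20.5 and 27.9 CPM in WT. Sums of the endothelial, fibroblast, Schwann cell, adipocyte, macrophage and erythroid lists also overlapped between the genotypes, and of the 10 lists only that of pericytes did not. Single genes of lists with overlapping sums could still separate. Synpo2 and Myocd were below every WT library in each KO library, as were 11.3% of all tested rows. Myh7, Myl4, Tnnc1, Actn3 and Eng were above every WT library in each KO library, as were 10.5% of all tested rows. In RNA from tissue, fewer cells of a type and less RNA per cell cannot be told apart.

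The upstream sequences of the members are shown first, for Dmd, Dag1 and Sgcd, whose KO and WT libraries did not overlap, and for Lama2, the only other member with a CArG box, the element bound by serum response factor. RefSeq windows (build GRCm38.p6) were found for all 9 members, and the 250 bases before the annotated start are used here. Capitals mark a CArG box, the letters CATTCC (the core of the MCAT element bound by TEAD factors) or the letters GGGCGG (the GC box bound by Sp1), each on either strand. Dmd has 2 annotated starts in RefSeq, and the first, at chrX:82948620-82948869 on the plus strand, lies before the start of the full-length transcript. Its CArG box begins 98 bases before that start.
Dmd, full-length start: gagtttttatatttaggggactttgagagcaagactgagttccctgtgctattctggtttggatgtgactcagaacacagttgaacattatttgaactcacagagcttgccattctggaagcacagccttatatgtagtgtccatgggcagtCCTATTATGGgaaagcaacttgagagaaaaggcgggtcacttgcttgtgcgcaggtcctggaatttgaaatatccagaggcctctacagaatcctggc
The second window, chrX:85048045-85048294, lies before an internal start from which a shorter dystrophin is made, and it holds GGGCGG on the minus strand at 3 places, of which 2 overlap.
Dmd, internal start: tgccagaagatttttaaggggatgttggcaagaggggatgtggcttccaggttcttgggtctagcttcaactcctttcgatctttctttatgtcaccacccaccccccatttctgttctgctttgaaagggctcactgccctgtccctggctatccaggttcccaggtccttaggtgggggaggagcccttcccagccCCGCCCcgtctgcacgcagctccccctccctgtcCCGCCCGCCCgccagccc
Dag1 lies on chromosome 9, and the window of its outermost start, chr9:108263959-108264208 on the minus strand, holds GGGCGG at 3 places.
Dag1: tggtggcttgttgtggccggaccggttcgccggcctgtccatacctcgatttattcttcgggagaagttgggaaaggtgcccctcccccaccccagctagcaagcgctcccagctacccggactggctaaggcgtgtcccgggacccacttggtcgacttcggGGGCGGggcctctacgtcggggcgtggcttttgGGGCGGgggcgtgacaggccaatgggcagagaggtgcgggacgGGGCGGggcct
Sgcd lies on chromosome 11, and the window of its RefSeq start, chr11:47379326-47379575 on the minus strand, holds CATTCC on the opposite strand and GGGCGG once. This start lies inside the gene as annotated in GENCODE M21, whose outermost start is at 47988969, so the window is not that of the outermost start.
Sgcd: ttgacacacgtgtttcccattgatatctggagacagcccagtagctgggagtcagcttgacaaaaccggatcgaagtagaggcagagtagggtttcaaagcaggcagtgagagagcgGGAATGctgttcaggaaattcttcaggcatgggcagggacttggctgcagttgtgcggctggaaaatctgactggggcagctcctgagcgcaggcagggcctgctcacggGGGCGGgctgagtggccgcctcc
Lama2 lies on chromosome 10, and the window of its RefSeq start, chr10:27616943-27617192 on the minus strand, has a CArG box that begins 39 bases before that start. This window too lies inside the gene as annotated in GENCODE M21, which reaches 27619758.
Lama2: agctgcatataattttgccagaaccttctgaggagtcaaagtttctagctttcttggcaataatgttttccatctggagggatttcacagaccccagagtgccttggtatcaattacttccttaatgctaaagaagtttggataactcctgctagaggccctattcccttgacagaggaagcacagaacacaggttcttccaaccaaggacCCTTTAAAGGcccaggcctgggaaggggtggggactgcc
Among 32851 windows of the same length in the table, 1.47% held a CArG box, 12.6% held CATTCC and 32.7% held GGGCGG. The window of Utrn, chr10:12861736-12861985 on the minus strand, held none of them and is not shown. It lies inside the gene, which reaches 12869365 in GENCODE M21, so the sequence before the outermost start was not searched. These matches describe letters and no binding was measured.

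Of the 9 members, 4 had each KO library below the lowest WT library, and these were Dmd, Utrn, Dag1 and Sgcd. They encode the cytoskeletal linkers, the laminin receptor and the delta-sarcoglycan. Sgca, Sgcb, Sgce, Sspn and Lama2 had overlapping libraries. Among all tested rows, 11.3% had each KO library below the lowest WT library. No member passed over all genes in edgeR's quasi-likelihood test, in which 0.00707% of rows were called lower and 0% higher. At an unadjusted p under 0.05 in that test, 4 members were lower and 0 were higher, against 7.76% of all rows lower and 6.8% higher. DESeq2, where 1.64% of the 8467 rows given an adjusted p were called lower and 0.709% higher, called 2 members as lower, Sgcd and Utrn. Limma-voom called 0 members. The median log2 fold change of the 9 members, KO over WT, was −0.042, beside 0.012 over all tested rows, with 8 members below 0 and 47.5% of all tested rows below 0. Pericyte markers, 7 of 7 detected, had a sum below the lowest WT library in every KO library, as did these 4 members. The sum was 2030, 3590 and 5180 CPM in KO replicates 1, 2 and 3, against 6840, 6770 and 6250 CPM in the WT replicates. Within WT, replicate 3 had the lowest pericyte sum but the highest level of each of the 4 members. Within KO, Sgcd (84, 92.1 and 97.1 CPM in replicates 1, 2 and 3) rose in the order of the pericyte sum, while Dmd, Utrn and Dag1 did not. Most of the pericyte sum in each WT library was Rgs5 (335, 1670 and 3490 CPM in KO, against 4860, 4730 and 4200 CPM in WT). Abcc9 (509, 431 and 416 CPM in KO, against 562, 584 and 597 CPM in WT; edgeR adjusted p = 0.264, DESeq2 adjusted p = 0.0201) and Kcnj8, which encode subunits of the vascular potassium channel gated by ATP, were also lower in every KO library, while Cspg4, Notch3 and Pdgfrb overlapped. Smooth muscle cells express several of these genes too, and the part of pericyte RNA in the members' levels was not tested. The members' median lay from −0.198, leaving out KO replicate 1, to −0.015, leaving out KO replicate 3.

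**Figure D1:**
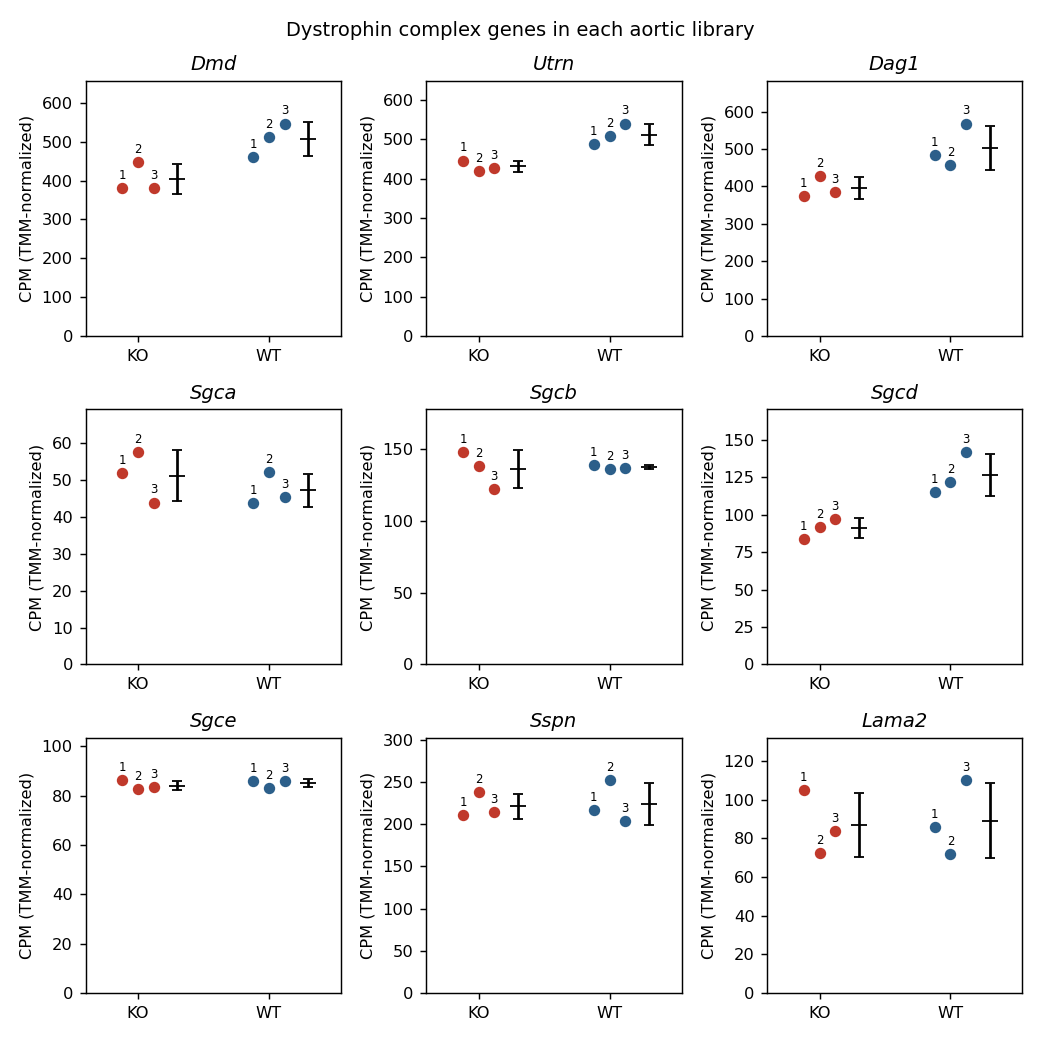
Level of each of the 9 genes in TMM-normalized CPM (vertical axis, starting at 0) in KO and WT libraries. Numbered points are libraries by replicate number, and the black mark beside them gives the mean and SD of 3. The points of Dmd, Utrn, Dag1 and Sgcd lie lower in KO than any WT point, and those of the other genes overlap.

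Dmd encodes dystrophin, the rod-shaped protein whose loss causes Duchenne muscular dystrophy in humans. Its gene spans 2257.3 kb of the X chromosome (82948870 to 85206141, plus strand, GRCm38, GENCODE M21), and its longest coding transcript has 14910 bases in 79 exons. Levels of Dmd were 382, 448 and 380 CPM in KO replicates 1, 2 and 3, against 460, 513 and 547 CPM in WT replicates 1, 2 and 3. The groups did not overlap, but KO replicate 2 came close to WT replicate 1. The means were 404 ± 38.9 CPM in KO and 506 ± 44 CPM in WT (SD, n = 3 each). The log2 fold change was −0.33 ± 0.099 (SE; 95% interval −0.56 to −0.10; edgeR adjusted p = 0.275, DESeq2 adjusted p = 0.0692). The counts behind it were at least 7409 per library, so counting error was about 1.16% of the value, while replicates varied by 9.64% in KO and 8.7% in WT. Counts per gene do not tell the full-length transcript from those of internal starts.

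Utrn encodes utrophin, which has the same domain plan as dystrophin and can stand in for it. It lies on chromosome 10 (12382188 to 12869365, minus strand), and its longest coding transcript has 12382 bases. Its levels were 446, 419 and 428 CPM in KO replicates 1, 2 and 3, against 487, 508 and 540 CPM in the WT replicates. The highest KO library lay clearly below the lowest WT library, and replicates varied by only 3.12% in KO and 5.25% in WT. The log2 fold change was −0.25 ± 0.071 (95% interval −0.41 to −0.08; edgeR adjusted p = 0.27, DESeq2 adjusted p = 0.0459). The log2 ratio of Utrn to Dmd counts within a library does not depend on the scaling between libraries. It was 0.22, −0.10 and 0.17 in KO replicates 1, 2 and 3 and 0.08, −0.01 and −0.02 in the WT replicates. The groups overlapped, with KO replicate 2 lowest of all, and the means differed by 0.08 (exact two-sided permutation p = 0.4, adjusted over 4 ratios 0.533, smallest p possible 0.1).

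Dag1 encodes dystroglycan, which is made as 1 chain and cut into the laminin-binding alpha and the membrane-spanning beta subunit. It lies on chromosome 9 (108204634 to 108263958, minus strand), and 4 exons make up its longest coding transcript of 5662 bases. Dag1 levels were 374, 428 and 384 CPM in KO replicates 1, 2 and 3, against 483, 456 and 568 CPM in the WT replicates. The gap between KO replicate 2 and WT replicate 2 was small, and WT replicate 3 stood highest. The means were 395 ± 29.1 CPM in KO and 502 ± 58.5 CPM in WT, a log2 fold change of −0.35 ± 0.102 (95% interval −0.58 to −0.11; edgeR adjusted p = 0.274, DESeq2 adjusted p = 0.0617). From the lowest to the highest library, the order of Dag1 was that of the mitochondrial share from highest to lowest, in all 6 libraries. Both Dag1 and that share separated KO from WT, so only the order within each genotype adds to this. Dmd, Utrn and Sgcd did not follow the order of the share. Utrn, for instance, was lowest in KO replicate 2 (419 CPM), which had the lowest share in KO (10%). The part of the mitochondrial share in the result for Dag1 was not tested.

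Among the 4 sarcoglycans of the set, delta was the only one whose groups did not overlap. Sgcd encodes delta-sarcoglycan, and it lies on chromosome 11 (46896253 to 47988969, minus strand). Its levels were 84, 92.1 and 97.1 CPM in KO replicates 1, 2 and 3, against 115, 122 and 142 CPM in the WT replicates. Each KO library was below each WT library, and the gap between the groups was wider than the range of the KO libraries. The means were 91.1 ± 6.64 CPM in KO and 126 ± 14 CPM in WT, a log2 fold change of −0.47 ± 0.095 (95% interval −0.69 to −0.25), or 27.9% lower. Its unadjusted p of 0.00125 ranked 67 among the 14145 rows, which missed the threshold in edgeR (adjusted p = 0.239) and met it in DESeq2 (adjusted p = 0.00703). Without single libraries, edgeR's adjusted p lay between 0.194 and 0.575, and the log2 fold change from −0.533, leaving out WT replicate 1, to −0.375, leaving out WT replicate 3.

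Sgcb encodes beta-sarcoglycan, the partner with which delta forms the core of the assembly, and it lies on chromosome 5 (73632749 to 73647790, minus strand). Levels of Sgcb were 148, 138 and 122 CPM in KO replicates 1, 2 and 3, against 139, 136 and 137 CPM in the WT replicates. The WT libraries lay almost on top of one another, and the KO libraries spread to either side of them. Its log2 fold change was −0.02 ± 0.08, with a 95% interval of −0.20 to 0.17, which does not reach the value found for Sgcd. The log2 ratio of Sgcb to Sgcd counts was 0.82, 0.58 and 0.32 in KO replicates 1, 2 and 3, against 0.27, 0.16 and −0.05 in the WT replicates. Every KO library thus had more Sgcb per Sgcd than any WT library, although KO replicate 3 and WT replicate 1 were close. The means differed by 0.45 (exact two-sided permutation p = 0.1, the smallest that 3 against 3 libraries allow; adjusted over 4 ratios 0.4). Without single libraries, the difference lay from 0.325, leaving out KO replicate 1, to 0.572, leaving out KO replicate 3.

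Sgce encodes epsilon-sarcoglycan, the form found broadly, and it is an imprinted gene expressed from the paternal copy. It lies on chromosome 6 (4674350 to 4747207, minus strand). Its levels were 86.1, 82.6 and 83.4 CPM in KO replicates 1, 2 and 3 and 85.9, 83.2 and 85.8 CPM in the WT replicates. The groups overlapped and all 6 values were close together, with replicates varying by 2.16% in KO and 1.83% in WT. The log2 fold change was −0.02 ± 0.052 (95% interval −0.14 to 0.10; edgeR adjusted p = 0.904).

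Sgca encodes alpha-sarcoglycan, the form of striated muscle, and it lies on chromosome 11 (94962791 to 94976327, minus strand). Its levels were 52, 57.6 and 43.9 CPM in KO replicates 1, 2 and 3 and 43.8, 52.2 and 45.5 CPM in the WT replicates. The groups overlapped, and replicate 2 was the highest in each. The log2 fold change was 0.12 ± 0.111 (edgeR adjusted p = 0.643). The log2 ratio of Sgca to Sgce counts was −0.73, −0.52 and −0.92 in KO and −0.97, −0.67 and −0.91 in WT (difference 0.13, exact permutation p = 0.6, also 0.6 adjusted over 4 ratios). Among heart muscle markers, Myh6 measured 13.4, 3.06 and 0.433 CPM in KO and 0.374, 1.63 and 0.414 CPM in WT. The part of heart muscle RNA in Sgca was not tested.

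**Figure D2:**
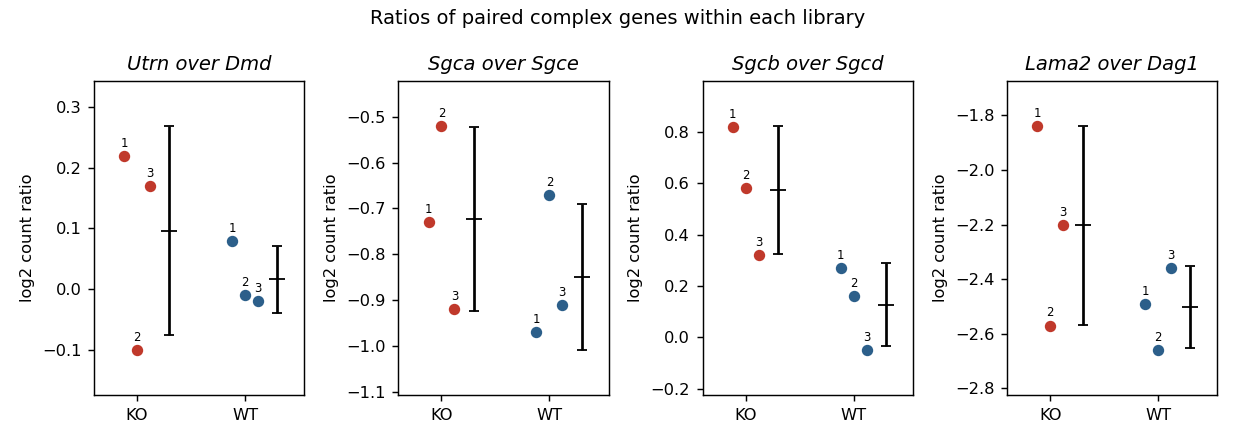
Log2 ratio of the counts of a pair of genes within each library (vertical axis, separate scale in each panel) in KO and WT. Numbered points are libraries, and the black mark gives the mean and SD of 3. The KO points of Sgcb over Sgcd, 0.32 to 0.82, lie above the WT points, −0.05 to 0.27, and the points of the other ratios overlap.

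Sspn encodes sarcospan, and it lies on chromosome 6 (145931641 to 145965223, plus strand). Its levels were 211, 238 and 215 CPM in KO replicates 1, 2 and 3 and 217, 252 and 204 CPM in the WT replicates. Replicate 2 was the highest in each group, and the groups overlapped. The log2 fold change was −0.02 ± 0.095 (95% interval −0.24 to 0.20; edgeR adjusted p = 0.936). Its sign turned with the length trend removed (0.015) and without KO replicate 1, KO replicate 3 or WT replicate 2, so no direction can be given. An antisense gene, Sspnos, shares 1.38% of its exon bases and had 0 counts.

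Lama2 encodes the laminin alpha 2 chain, a ligand of dystroglycan, whose loss causes a congenital muscular dystrophy. It lies on chromosome 10 (26980036 to 27619758, minus strand). Levels of Lama2 were 105, 72.4 and 83.6 CPM in KO replicates 1, 2 and 3 and 85.8, 72 and 110 CPM in the WT replicates. Its libraries spread more than those of the other members, by 18.8% in KO and 21.7% in WT, and the groups overlapped. The log2 fold change was −0.04 ± 0.179, with an interval of −0.46 to 0.37 that is too wide to show or exclude a change of the size seen for Dmd. Fibroblast markers, all 10 of 10 detected, summed to 3310, 1960 and 2940 CPM in KO replicates 1, 2 and 3 and to 2660, 2050 and 2780 CPM in the WT replicates. Replicate 2 was lowest in both groups for Lama2 and for these markers, and the part of fibroblast RNA in Lama2 was not tested. The log2 ratio of Lama2 to Dag1 counts was −1.84, −2.57 and −2.20 in KO and −2.49, −2.66 and −2.36 in WT (difference 0.31, exact permutation p = 0.3, adjusted over 4 ratios 0.533). An antisense gene, Gm48084, shares 3.86% of the exon bases of Lama2, and the sources used do not say how strand was handled in counting.

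Levels of different genes can be compared only per length. Per kilobase of all annotated exons, Dag1 had the highest level, with 62.2 ± 4.58 CPM per kb in KO and 79 ± 9.21 CPM per kb in WT. Sspn followed, with 44.3 ± 2.9 and 44.9 ± 4.93 CPM per kb in KO and WT. Sgcb had 33.5 ± 3.29 and 33.9 ± 0.371 CPM per kb in KO and WT. Then came, by their WT level, Utrn with 25.2 ± 0.785 CPM per kb in KO and 29.9 ± 1.57 in WT, and Sgca with 29.5 ± 3.96 in KO and 27.2 ± 2.55 in WT. The libraries of Utrn and Sgca overlapped in both genotypes on this scale. Dmd (17 ± 1.63 in KO, 21.3 ± 1.85 in WT), Sgcd (11 ± 0.804 in KO, 15.3 ± 1.7 in WT) and Sgce (7.92 ± 0.171 in KO, 8 ± 0.146 in WT) were lower. Lama2 was lowest, with 5.32 ± 1 CPM per kb in KO and 5.47 ± 1.19 in WT. The order in between depends on the length used. Per kilobase of the longest coding transcript, Dag1 stayed first and Lama2 last, but Sgcd came second in WT, with 51.6, while in KO it had 37.2, below Sspn with 49 and Sgce with 47.3. Sgce had 47.8 in WT, and in both genotypes it was above Sgca with 29.7 in KO and 27.4 in WT. Zeta-sarcoglycan (Sgcz), which is no member and was looked at after its values were seen, had 0 counts in all libraries.

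Across all genes, fold changes moved with transcript length. Of 14145 tested rows, 88.2% had a length from GENCODE M21, and these were split into 10 groups of near equal size by that length. It was that of the longest coding transcript, or of the longest transcript where a gene has no coding one. In the group of the shortest transcripts (63 to 1332 bases), the median log2 fold change was 0.09, and 2.08% of genes were lower in every KO library. In the group of the longest (6853 to 106824 bases), the median was −0.106, and 27.1% of genes were lower in every KO library. Dmd, Utrn and Lama2 are in that longest group, and Dag1 is in the one before it, where 21.9% were lower in every KO library. Sgcd, with a longest coding transcript of 2450 bases, is in the fourth group, where 8.51% were. Annotated exons of Sgcd add up to 8257 bases, so that its length depends on which transcript is taken. In each library, the median level of the longest group relative to the mean of the 6 libraries was −0.071, −0.055 and −0.044 on the log2 scale in KO replicates 1, 2 and 3 and 0.012, 0.043 and 0.101 in WT replicates 1, 2 and 3.

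**Figure D3:**
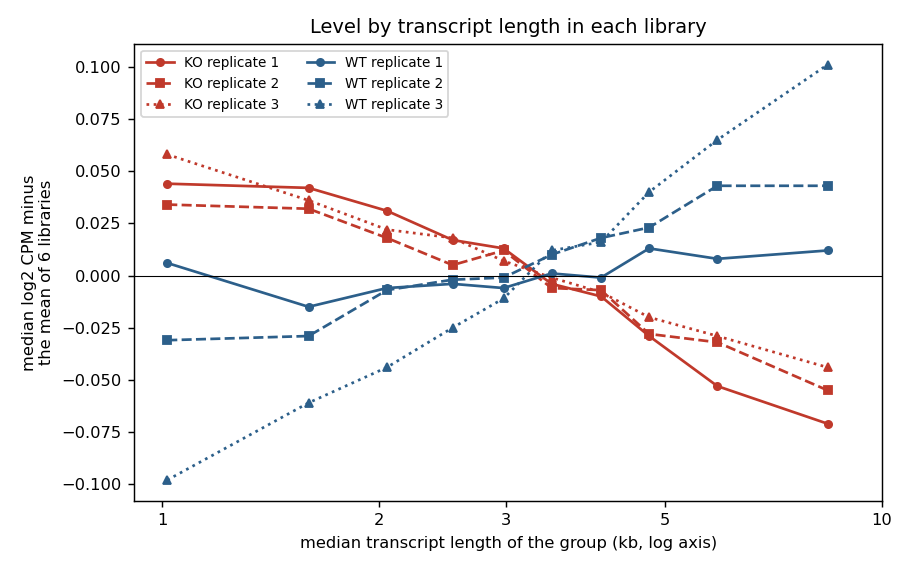
Median log2 CPM of the genes in each of the 10 groups by transcript length, minus each gene's mean over the 6 libraries (vertical axis), against the median length of the group in kb (log axis). Lines are libraries, KO in red and WT in blue. The KO lines fall with length to between −0.071 and −0.044, and the line of WT replicate 3 climbs to 0.101.

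An alternative chosen after the data were seen took this trend out of each library before the fit. It removes any difference between the genotypes that goes with length, whatever its source. Sgcd then had a log2 fold change of −0.50 ± 0.1 (edgeR adjusted p = 0.312) and Dag1 −0.28 ± 0.095 (0.349). Dmd had −0.19 ± 0.082 (0.391) and Utrn −0.12 ± 0.064 (0.459). The trend at the length of Dmd was −0.13 and at that of Utrn −0.12. At the 2450 bases taken for Sgcd it was 0.03, and at the 1776 bases taken for Sgce 0.06. Annotated exons of these genes add up to 8257 and 10612 bases, and their results at those lengths were not tested. With the trend removed, 9.93% of the 12477 genes were lower in every KO library, and so were 4 members, Utrn, Dag1, Sgcd and Sgce. Dmd was no longer among them, since KO replicate 2 (464 CPM) passed WT replicate 1 (459 CPM), while the values of Sgce lay between 81 and 83.3 CPM in KO and between 83.9 and 89 CPM in WT. No gene passed over all genes in edgeR in that fit, while at an unadjusted p under 0.05 it had 775 lower and 817 higher genes, with 3 members lower and 0 higher. The source of the length trend was not tested.

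**Figure D4:**
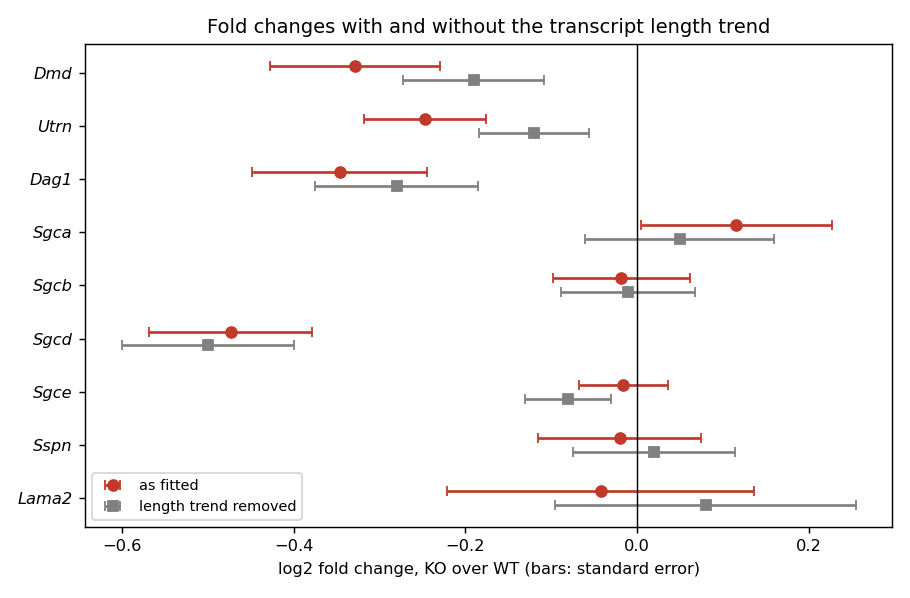
Log2 fold change, KO over WT, of each gene (horizontal axis, bars give the standard error) as fitted and with the transcript length trend removed. Sgcd, taken at a length of 2450 bases, keeps its value (−0.47 and −0.50). Dag1 moves to −0.28, Dmd to −0.19 and Utrn to −0.12, and Sspn and Lama2 change sign.

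The genes that work with the complex were described from 4 lists. No gene of the 4 lists passed over all genes in edgeR, DESeq2 or limma-voom. Partners inside the cell and the remaining sarcoglycans had 16 of 19 rows tested, of which 13 were below 0 and 3 above 0, with a median log2 fold change of −0.144 beside 0.012 over all tested rows. In this list 3 genes were lower and 0 higher at an unadjusted p under 0.05 in edgeR, beside 7.76% of all tested rows lower and 6.8% higher, shares that stand behind the same counts of the other lists. Among them were Sntb2 and Sntg2, which encode syntrophins, adaptor proteins that bind dystrophin. Sntb2 measured 73.6, 77.4 and 80 CPM in KO, against 92.9, 85.9 and 108 CPM in WT (log2 −0.31 ± 0.09, edgeR adjusted p = 0.27). Sntg2 had a log2 fold change of −0.27 ± 0.096, and in both genes every KO library lay below every WT library, as in 11.3% of all tested rows. Nos1, which encodes the neuronal nitric oxide synthase, was at a low level, with a mean of 0.983 CPM in KO and 0.56 CPM in WT, and its libraries overlapped.

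Enzymes that build the laminin-binding sugar chain of dystroglycan had 17 of 18 rows tested, with 11 below 0, 6 above 0 and a median of −0.062. In edgeR, 0 were lower and 0 higher at an unadjusted p under 0.05. The dolichol phosphate mannose synthase subunits Dpm3 (24.2 ± 1.56 CPM in KO, 21.6 ± 0.608 in WT) and Dpm1 (4.4 ± 0.363 CPM in KO, 3.25 ± 0.805 in WT) had each KO library above the highest WT library, as had 10.5% of all tested rows. The O-mannosyltransferase Pomt1 had 0.15 ± 0.083.

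Ligands of dystroglycan, other laminin chains and further matrix proteins had 20 of 25 rows tested, with 15 below 0, 5 above 0 and a median of −0.087, and 5 were lower and 0 higher at an unadjusted p under 0.05. The collagen VI chains Col6a1 (555, 725 and 652 CPM in KO, against 797, 793 and 763 CPM in WT) and Col6a2 (log2 −0.33 ± 0.123) had the smallest p. Slit3, whose family binds dystroglycan, had −0.44 ± 0.168, and the laminin gamma 3 chain Lamc3 had −0.39 ± 0.152. In these 4 of the 20 tested genes no KO library reached the lowest WT library, beside 11.3% of all tested rows. Other laminin receptors and syndecans had 12 of 12 rows tested, with 8 below 0, 4 above 0 and a median of −0.08, and 3 were lower and 0 higher at an unadjusted p under 0.05. The syndecan Sdc2 measured 157, 169 and 158 CPM in KO, against 184, 189 and 191 CPM in WT (log2 −0.22 ± 0.061, edgeR adjusted p = 0.264). Sdc4 had −0.23 ± 0.076, the integrin beta 1 chain Itgb1, part of the other main laminin receptor of muscle, had −0.23 ± 0.09, and Itga1 had −0.15 ± 0.079, each with every KO library below every WT library. With Sdc2 these were 4 of 12 genes, beside the 11.3% of all tested rows. That share differed with transcript length, from 2.08% in the group of the shortest to 27.1% in that of the longest. Transcript length was not taken into account for the 4 lists.

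The pattern of Dmd over the 6 libraries was compared with that of 8985 other genes of at least 10 CPM, by the root mean square difference of centred log2 CPM. Among the members, Dag1 was the most like it, at 0.081, and 0.946% of those genes were closer to Dmd. Utrn (0.112, with 4.84% closer) and Sgcd (0.122, with 7.23% closer) came next, and Lama2 was the least like it (0.309, with 84.8% closer). The closest genes outside the complex were Ttc28 at 0.025, Pdpr at 0.03, the Wnt pathway adaptor gene Dvl3 at 0.032, the autophagy gene Atg9a at 0.034 and Plekhm3 at 0.04. Levels of Ttc28 were 228, 269 and 224 CPM in KO replicates 1, 2 and 3, against 286, 314 and 330 CPM in the WT replicates. Its KO libraries were, as for Dmd, below all WT libraries with replicate 2 the highest of them. Ttc28 was chosen for its likeness to Dmd over these same libraries, so this match is no separate result. Likewise, the likeness of Dag1, Utrn and Sgcd to Dmd includes the gap between KO and WT already described.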

How the data were processed

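The values are raw counts of reads per gene symbol, as whole numbers, in the table the authors deposited. Per the submitters' processing notes, reads were trimmed with Trimmomatic (0.36), aligned to GRCm38 with STAR (2.6.0c) and counted with featureCounts (Subread 1.6.1). The annotation release, the strand setting and the rule for multi-mapping reads are not given in the sources used, so counts of overlapping genes are uncertain. Columns were assigned by the library names in the labels.

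The main test was edgeR 4.0.16 (R 4.3.3), quasi-likelihood, on these counts with genotype as the only term, TMM, filterByExpr (minimum count 10, minimum total 15) and Benjamini-Hochberg adjustment over 14145 rows, with a threshold of 0.05. Standard errors were taken as the fold change divided by the root of F. Alternatives were DESeq2 1.42.0 (its size factors and its test), limma-voom (limma 3.58.1), other filters, rows left out, the replicate number as a term, and each library left out. A lowess trend on transcript length was added after the data were seen.

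The members and lists were chosen with earlier results of these data known. Named genes were all members, up to 4 tested genes of smallest p per list, and 5 genes most like Dmd. Some genes that this rule names are not reported here. RP23-57D10.3 and Sgcz were named after their values were seen. Chi-square per gene between replicates, 15.1 to 70.6, showed no library entered more than once.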

Additional observations from a re-analysis of the deposited data

How the results depend on the processing

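Over 126 refits of single members, 116 kept direction and side of the threshold. DESeq2 called 199 genes in all, 2 of them members, Utrn (−0.255, adjusted p = 0.0459) and Sgcd (−0.481, adjusted p = 0.00703). Without a filter edgeR called 9 genes, and with the length trend removed 0. With the trend removed, Sspn had 0.015 and Lama2 0.077, so both changed sign. The replicate block called 0 genes and no member. Same-numbered libraries had correlations of 0.117, 0.117 and −0.075 between their deviations, so the numbers were not taken as pairs. With single libraries left out, genes called ranged from 0, leaving out WT replicate 1, to 3, leaving out KO replicate 2, and members called stayed at 0. The members' median ranged from −0.198, leaving out KO replicate 1, to −0.015, leaving out KO replicate 3, and was −0.177 without WT replicate 2. Sgcb lay between −0.084 and 0.056, Sspn between −0.078 and 0.071, and Lama2 between −0.198 and 0.142, each changing sign. Dmd, Utrn, Dag1 and Sgcd stayed below 0 throughout and did not overlap between KO and WT under 4 scalings, but with the length trend removed Dmd did. The causes of these changes were not tested. With at least 1008 counts per member and library, spread between replicates exceeds counting error, except for Sgce (counting error 2.45%, spread 2.16% in KO and 1.83% in WT) and for Sgcb in WT (1.89%, spread 1.09%).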
